A study of Arabidopsis thaliana with 12 samples.

Results

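Roots of *Arabidopsis thaliana* seedlings grown on the International Space Station (ISS) were compared with roots of ground control seedlings over the 65 genes of the deposited root table, all of which are described here. Together with the deposited leaf table of 608 genes, of which 17 are also in the root table, the tables used here list 656 genes. These are fewer than the study counts at the same thresholds, so every count of listed genes below, and every statement that a gene is listed for root alone, covers the genes of these tables only. The authors placed a gene in a table only when it passed their test of the same comparison in the same libraries. A change in the 65 genes is therefore what brought them into the table, and the counts of calls below describe these libraries and are not further evidence of the changes.

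All plants were wild-type seedlings of the Wassilewskija (WS) ecotype. They grew on plates for 11 days under LED lamps that stayed on throughout, in the plant growth unit Veggie, and the labels name no mutation, transgene or drug for any group. Spaceflight (FT) seedlings grew in the unit on the ISS and ground control (GC) seedlings grew in the same kind of unit in an environmental chamber on Earth. Each group had 3 plates, which were its biological replicates, and RNA came from a pool of 3 plants per plate, so that the 6 root libraries have 6 partner leaf libraries from the same plants. All plates of a group shared a growth unit and a run, so that spaceflight and any other difference between the units cannot be told apart. The extraction text of the labels speaks of root tips and the study's methods of roots dissected whole, and which of these the libraries hold is not settled. The material and organ fields of the labels give leaves for the spaceflight roots and roots for the ground control leaves. The titles were followed. BGLU21, a beta-glucosidase of roots and the root marker listed, was at 521 to 968 FPKM in the 6 libraries titled root and at 0.34 to 2.12 FPKM in those titled leaf.

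A root anchors the plant, takes up water and minerals, senses gravity in its cap and lives on sugar sent down from the shoot. Photosynthesis genes are therefore expressed far more strongly in leaves, whereas many peroxidases, cytochrome P450 enzymes and glycosyltransferases have their main expression in roots. The circadian clock, light signalling and the supply of sugar control large sets of genes in both organs. Levels are given below as FPKM, fragments scaled to transcript length and to the mapped fragments of the library, always in the order of plates 1, 2 and 3. A change is the spaceflight minus ground control difference of the mean log2(FPKM + 1), printed with its standard error (SE), and a gene was called when limma gave an adjusted p under 0.05 (Benjamini-Hochberg over the table) and at least a 2-fold change. The added 1 shrinks the change of genes with low FPKM, and every statement on 2-fold below is on this scale unless it names the mean FPKM. Gene positions are those of the TAIR10.1 annotation. Sequencing depth is unknown because the tables carry no counts, and a counting error cannot be given.

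Of the 65 genes, 42 had a higher mean in spaceflight roots and 23 a lower mean. limma called 36 of them, which is 55.4% of the table, with 18 higher (27.7%) and 18 lower (27.7%). The adjusted p was under 0.05 for 59 genes, and the 2-fold threshold on this scale removed the difference between 59 and 36. By the group means of FPKM, with nothing added, all 42 higher genes and 21 of the 23 lower genes differed by at least 2-fold. With 0.1 in place of 1 added to the FPKM, 57 genes were called, 37 of them higher. Adjusted over the genes of both tables together, 23 were called, 10 of them higher. The highest changes belonged to genes for a short upstream open reading frame peptide (CPuORF21), a carbonic anhydrase (BCA3) and ubiquitin ligases (ATL75 and ATL8). The lowest belonged to a mitochondrial carrier (PUMP4), an uncharacterised gene (AT4G27657) and a clock component (APRR9). On this scale BCA3 was 4.65-fold, ATL75 3.43-fold and ATL8 3.40-fold higher, and PUMP4 was 3.63-fold and APRR9 3.16-fold lower. The median size of the log2 change over the 65 genes was 1.04. Counts of calls in the function groups below stand beside the 55.4% of the whole table, and no group's share was tested against it.

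**Figure D1:**
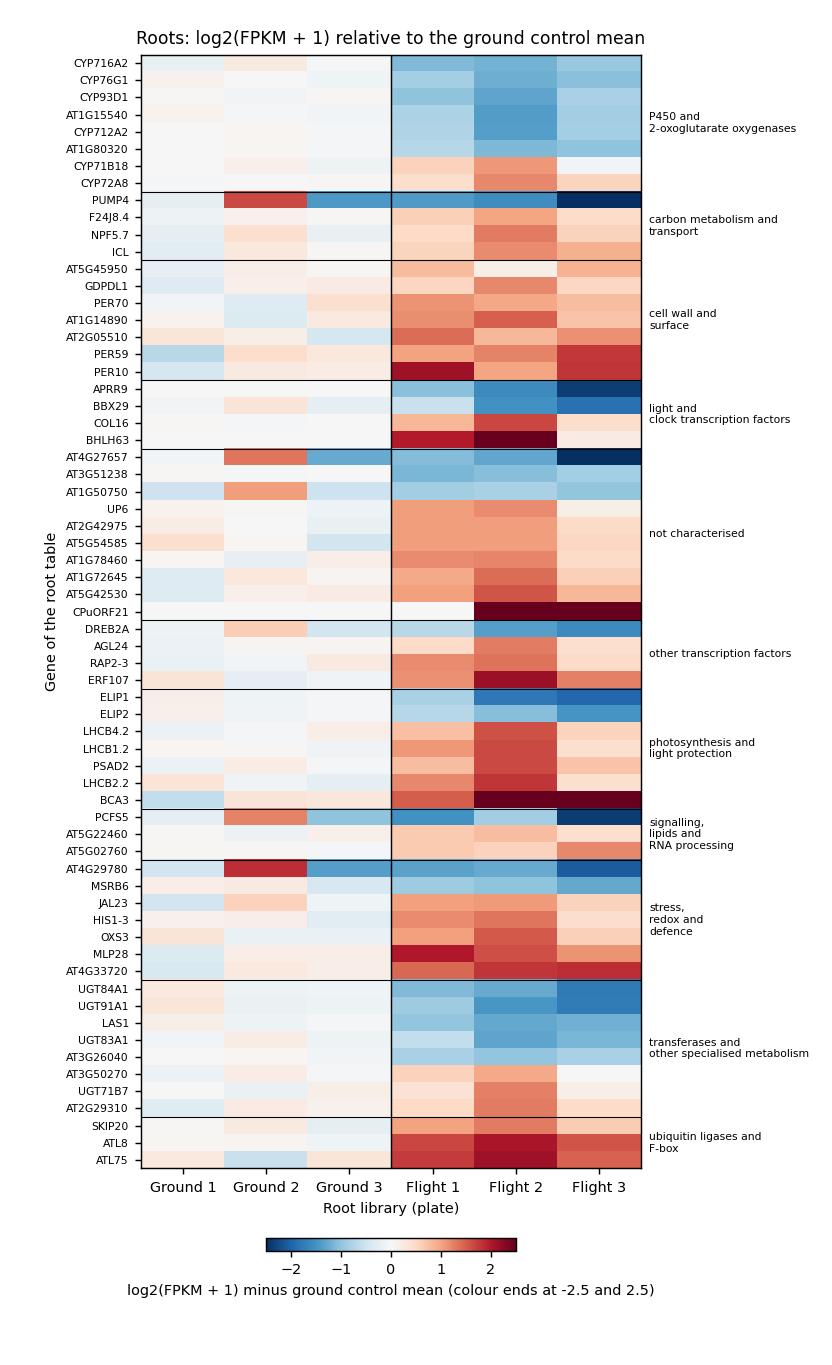
Heat map of log2(FPKM + 1) minus the ground control mean in the 6 root libraries (columns) for the 65 genes (rows), grouped by function, with the group names at the right. Blue is lower and red is higher than the ground control mean, and ground control plate 2 stands out in red for PUMP4, AT4G27657, AT1G50750, PCFS5 and AT4G29780.

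The 3 plates of a group moved the same genes in the same direction, but by different amounts. The value of spaceflight plate 2 lay on the same side of the ground control mean as the group mean for 65 of 65 genes, and those of plates 1 and 3 for 64 each. Spaceflight plate 1 lay outside the range of the 3 ground control plates for 61 genes, plate 2 for 62 and plate 3 for 63. For 57 genes (87.7%) the groups did not overlap, 38 with all spaceflight values higher and 19 with all lower. Since the table was chosen on this contrast, these counts describe its members only. Spaceflight plate 2 differed from the ground control mean by at least 2-fold for 54 genes, plate 1 for 32 and plate 3 for 27.

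The plates also differed between the directions. Over the 42 higher genes the median difference from the ground control mean was 1.30 in plate 2, 1.02 in plate 1 and 0.58 in plate 3, on the log2(FPKM + 1) scale. Over the 23 lower genes it was -1.27 in plate 2, -0.88 in plate 1 and -1.28 in plate 3. Spaceflight plate 2 held the highest of the 6 values for 32 of the 42 higher genes, and plate 3 held the lowest of the 6 for 13 of the 23 lower genes. The median SD within a group over the 65 genes was 0.394 in spaceflight and 0.214 in ground control, on the same scale. Left without spaceflight plate 2, the table gave 18 calls, 9 in each direction. Without spaceflight plate 3 it gave 28 higher calls, and without ground control plate 2 it gave 11 lower calls. Of the 36 calls, 12 held whichever library was left out, those of APRR9, ELIP1, ERF107, ATL75, ATL8, BCA3, PER10, MLP28, AT4G33720, UGT84A1, UGT91A1 and LAS1, and all 36 kept their direction.

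**Figure D2:**
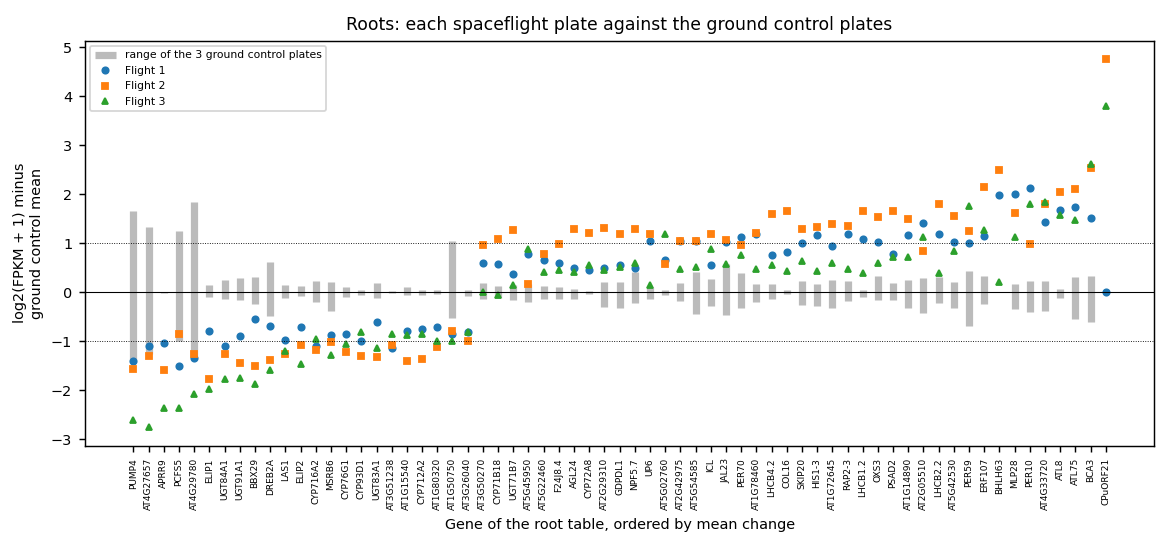
Difference of each spaceflight plate (points) from the ground control mean in log2(FPKM + 1) for the 65 genes, ordered by mean change, with the range of the 3 ground control plates as grey bars and 2-fold marked by dotted lines. Orange squares (plate 2) lie at the top for 32 of the 42 higher genes, and the widest grey bars belong to lower genes.

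The 3 genes of the ubiquitin system in the root table had higher means in spaceflight roots. Of these, 2 were called higher (55.4% of the table was called). For all 3 the groups did not overlap, as for 87.7% of the table. ATL8 (AT1G76410, chr1:28668664-28669652, plus strand), a RING-H2 ubiquitin ligase, was at 6.82, 6.94 and 6.03 FPKM in the ground control plates and 23.3, 30.3 and 21.5 FPKM in the spaceflight plates. The lowest spaceflight plate was more than 3 times the highest ground control plate, and the change was 1.76 ± 0.24 (adjusted p = 0.00381). ATL75 (AT1G49200, chr1:18198227-18199168, plus strand), another RING-H2 ligase, was at 4.3, 2.06 and 4.55 FPKM on the ground and 14.02, 18.4 and 11.5 FPKM in flight, a change of 1.78 ± 0.31 (adjusted p = 0.00614). SKIP20 (AT3G59940), an F-box protein with kelch repeats that marks phenylalanine ammonia-lyase for breakdown, was at 6.74, 7.93 and 5.39 FPKM on the ground and 14.2, 17.7 and 10.9 FPKM in flight. Its groups did not overlap either, and its change of 0.98 ± 0.27 fell just short of 2-fold with 1 added (adjusted p = 0.0139). In bulk tissue, a change in the number of cells of a type and a change in the RNA per cell cannot be told apart, here and for all genes below.

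Among cell wall and surface genes, 4 of 7 were called higher and none lower. PER10 (AT1G49570, chr1:18346958-18349049, plus strand), a class III peroxidase of the cell wall, was at 2.3, 4.14 and 4.01 FPKM on the ground and 18.1, 7.69 and 14.3 FPKM in flight, a change of 1.63 ± 0.35 (adjusted p = 0.00739). PER59 (AT5G19890), of the same family, was at 14.3, 32.5 and 28.7 FPKM on the ground and 48.9, 57.5 and 83 FPKM in flight, a change of 1.34 ± 0.36 (adjusted p = 0.0123). Peroxidases of this class use hydrogen peroxide to cross-link or loosen wall polymers. AT1G14890, which encodes a protein of the invertase and pectin methylesterase inhibitor family, was at 26.02, 19.2 and 29.1 FPKM on the ground and 55.95, 70.5 and 40.8 FPKM in flight, a change of 1.12 ± 0.29 (adjusted p = 0.011). AT2G05510, a glycine-rich protein gene, was at 21.9, 19.6 and 12.8 FPKM on the ground and 48.4, 32.3 and 40.1 FPKM in flight, a change of 1.12 ± 0.29 (adjusted p = 0.0107). In each of these 4 genes every spaceflight plate was above every ground control plate. The other members did not reach 2-fold once 1 was added to their low FPKM, PER70 (AT5G64110) with a change of 0.95 ± 0.27, GDPDL1 (AT1G66970) with 0.75 ± 0.29 and the GDSL lipase gene AT5G45950 with 0.61 ± 0.28, whose groups met at 0.47 FPKM in ground control plate 2 and spaceflight plate 2. PER10, PER59 and AT2G05510 were at no more than 0.28 FPKM in any leaf library.

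Stress, redox and defence genes had 3 of 7 members called higher and 1 called lower, a share near the 55.4% of the whole table. AT4G33720 (chr4:16182743-16183619, plus strand), of the family of the pathogenesis-related protein PR-1, was the most abundant of them at 63.3, 98.02 and 92.3 FPKM on the ground and 225, 289.9 and 301 FPKM in flight, a change of 1.69 ± 0.27 (adjusted p = 0.0061). MLP28 (AT1G70830, chr1:26709889-26711587, minus strand), a major latex protein, was at 7.89, 11.6 and 11.7 FPKM on the ground and 43.96, 33.5 and 23.5 FPKM in flight, a change of 1.58 ± 0.30 (adjusted p = 0.00739). OXS3 (AT5G56550), a nuclear protein known for oxidative stress tolerance, was at 7.97, 5.38 and 5.34 FPKM on the ground and 13.5, 19.5 and 9.76 FPKM in flight, a change of 1.05 ± 0.31 (adjusted p = 0.0161). These 3 genes were higher in every spaceflight plate than in any ground control plate. MSRB6 (AT4G04840), a methionine sulfoxide reductase, was lower at 34.2, 35.3 and 22.8 FPKM on the ground and 15.9, 14.5 and 11.8 FPKM in flight, a change of -1.06 ± 0.27 (adjusted p = 0.0107), also with no overlap. The linker histone gene HIS1-3 (AT2G18050), which responds to drought, had a change of 0.98 ± 0.30 and the jacalin-like lectin gene JAL23 (AT2G39330) one of 0.89 ± 0.32, both short of 2-fold with 1 added. AT4G29780 is described below with the genes high in ground control plate 2.

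Among cytochrome P450 enzymes and 2-oxoglutarate dependent oxygenases, 4 of 8 were called lower and none higher (55.4% of the table was called). Of the 8, 6 had every spaceflight plate below every ground control plate (the groups did not overlap for 87.7% of the table). CYP716A2 (AT5G36140), a P450 of a family that oxidises triterpenes, was at 16.4, 22.4 and 18.4 FPKM on the ground and 8.26, 7.77 and 9.26 FPKM in flight, a change of -1.08 ± 0.24 (adjusted p = 0.00739). CYP76G1 (AT3G52970) was at 12.96, 11.8 and 11.01 FPKM on the ground and 6.14, 4.51 and 5.21 FPKM in flight, a change of -1.04 ± 0.23 (adjusted p = 0.00739). CYP93D1 (AT5G06900) was at 14.95, 13.9 and 14.97 FPKM on the ground and 6.78, 5.29 and 7.9 FPKM in flight, a change of -1.04 ± 0.24 (adjusted p = 0.00848). No spaceflight plate of these 3 genes came near the lowest ground control plate. The oxygenase gene AT1G15540 was at 33.4, 30.4 and 29.7 FPKM on the ground and 17.6, 11.2 and 16.6 FPKM in flight, a change of -1.02 ± 0.25 (adjusted p = 0.0107). CYP712A2 (AT5G06905) and AT1G80320 had lower values and were not called, with changes of -0.998 ± 0.25 and -0.95 ± 0.23. CYP93D1 and CYP712A2 lie 344 bases apart on chromosome 5. CYP71B18 (AT3G26165) and CYP72A8 (AT3G14620) were the members with higher means, at 0.53 (adjusted p = 0.13) and 0.74 (adjusted p = 0.032). Both had at least 10 times more FPKM in leaves than in roots, and TAIR10.1 annotates CYP71B18 as a transcribed pseudogene. The calls of this group rested in part on single libraries, with 2 left without ground control plate 1 and 1 without spaceflight plate 2.

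Of the transferases and other specialised metabolism genes, 4 of 8 were called lower and none higher, and 3 of the 8 had higher means. UGT84A1 (AT4G15480, chr4:8848801-8850516, minus strand), which puts glucose on hydroxycinnamic acids, was at 43.5, 33.2 and 33.7 FPKM on the ground and 16.6, 14.7 and 10.03 FPKM in flight, a change of -1.37 ± 0.27 (adjusted p = 0.00739). UGT91A1 (AT2G22590, chr2:9592956-9594579, plus strand), another glycosyltransferase, was at 19.7, 14.1 and 14.4 FPKM on the ground and 8.07, 5.16 and 4.01 FPKM in flight, a change of -1.37 ± 0.29 (adjusted p = 0.00739). LAS1 (AT3G45130, chr3:16512170-16517781, minus strand), the lanosterol synthase, which closes the ring system of a sterol precursor, was at 8.51, 6.91 and 7.41 FPKM on the ground and 3.35, 2.56 and 2.72 FPKM in flight, a change of -1.15 ± 0.23 (adjusted p = 0.00739). The spaceflight plates lay below the ground control plates in all 3 genes. UGT83A1 (AT3G02100) was at 8.58, 10.3 and 8.22 FPKM on the ground and 5.57, 2.99 and 3.52 FPKM in flight, a change of -1.03 ± 0.27 (adjusted p = 0.0115). The acyltransferase gene AT3G26040 was lower with no overlap and a change of -0.87 ± 0.22. AT2G29310, UGT71B7 (AT3G21790) and AT3G50270 had changes of 0.75, 0.59 and 0.51, were not called, and were at least 10 times more abundant in leaves. UGT84A1 overlaps AT4G15475 and UGT83A1 overlaps AT3G02090 on the opposite strand in the TAIR10.1 annotation. Since the strand setting of the counting is not settled, reads of the overlapping parts could have gone to either gene. The same holds for ATL75, SKIP20, DREB2A, LHCB4.2, UP6, AT1G80320 and AT5G02760, which also overlap a gene on the opposite strand. PSAD2, AT1G72645 and AT5G22460 overlap a gene on the same strand.

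**Figure D3:**
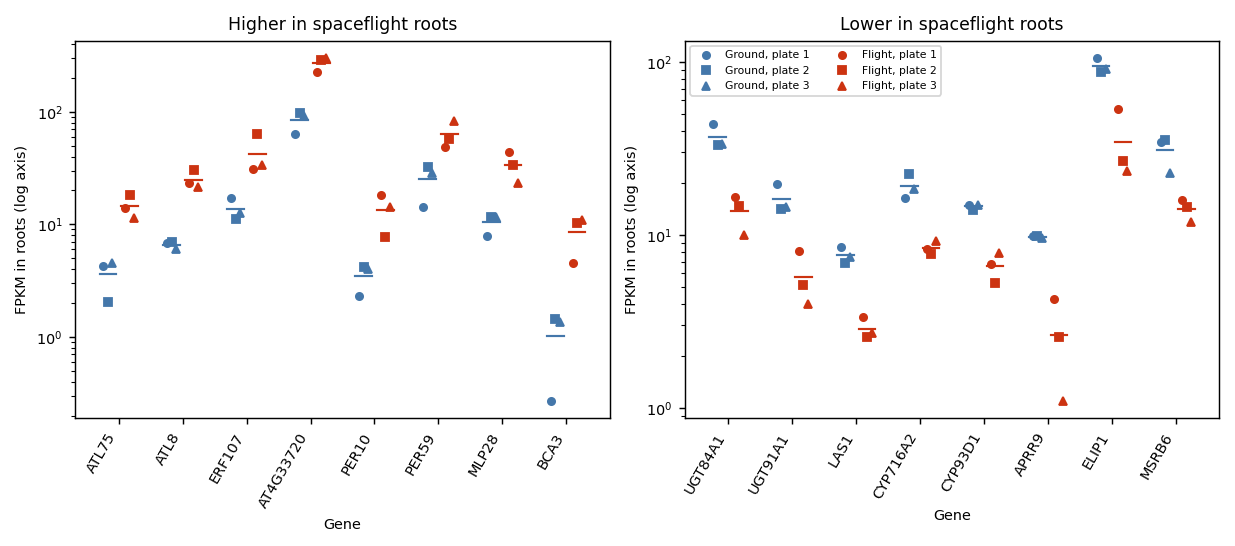
FPKM in roots on a log axis for 8 genes with higher and 8 genes with lower spaceflight values, with ground control plates in blue, spaceflight plates in red, plates 1 to 3 as circles, squares and triangles, and the group mean as a bar. In all 16 genes the 3 spaceflight values lie on one side of the 3 ground control values, and BCA3, near 1 FPKM on the ground, spreads the most.

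Of 4 light and clock transcription factors, 2 were called lower and 1 higher (55.4% of the table was called). The groups of all 4 were apart, as they were for 87.7% of the table. APRR9 (AT2G46790, chr2:19232607-19235179, plus strand), a pseudo-response regulator that represses morning genes of the circadian clock, was at 9.82, 9.83 and 9.63 FPKM on the ground, with an SD of 0.113 FPKM, and at 4.25, 2.57 and 1.1 FPKM in flight. The change was -1.66 ± 0.34 (adjusted p = 0.00739), and the 3 spaceflight plates differed from each other by more than the ground control plates did. BBX29 (AT5G54470), a B-box protein of the light response, was at 8.81, 11.9 and 7.74 FPKM on the ground and 6.03, 2.63 and 1.83 FPKM in flight, a change of -1.31 ± 0.36 (adjusted p = 0.0139). BHLH63 (AT4G34530), also known as CIB1, which acts with a blue light receptor, was called higher, with 0 listed for all 3 ground control plates and 2.97, 4.62 and 0.16 FPKM in flight. No fold is given against a group at 0, spaceflight plate 3 was near 0 as well, and the gene overlaps AT4G34540 on the same strand. COL16 (AT1G25440), of the CONSTANS-like family, was at 1.46, 1.33 and 1.4 FPKM on the ground and 3.26, 6.58 and 2.23 FPKM in flight, a change of 0.97 ± 0.33 (adjusted p = 0.0247) that was not called. BHLH63 and COL16 had 21.9 and 43.6 times more FPKM in leaves than in roots. Among the spaceflight roots they were highest in plate 2 and lowest in plate 3. The part of leaf tissue in their higher values was not tested. Without spaceflight plate 2, only 1 of the 4 was called.

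ELIP1 (AT3G22840, chr3:8084405-8085669, minus strand) and ELIP2 (AT4G14690), the early light-induced proteins, which bind pigment and protect plastids from excess light, were lower. ELIP1 was at 105, 87.6 and 91.4 FPKM on the ground and 53.7, 26.7 and 23.4 FPKM in flight, a change of -1.52 ± 0.33 (adjusted p = 0.00739). ELIP2 was at 54.8, 47.3 and 49.3 FPKM on the ground and 30.2, 23.4 and 17.5 FPKM in flight, a change of -1.09 ± 0.27 (adjusted p = 0.0107). In both genes spaceflight plate 1 was the nearest to ground control, and no spaceflight plate reached the lowest ground control plate.

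The G-box CACGTG, bound by bHLH and bZIP factors of the light response, was searched in the 250 bases before each gene's annotated start in TAIR10.1, where a match on a strand is also a match on the other. It was found before 5 of 62 genes of the root table with such a window (8.06%) and before 6.49% of 27443 protein-coding genes, so that the share in the table was near that of the genome. The windows of APRR9 and ELIP1 are shown, since they are the lower light and clock genes with a match, in the 5′ to 3′ direction of the gene and with the G-boxes in capitals. The matches lay 166 and 238 bases before the start of APRR9 and 60 bases before that of ELIP1. The reference is that of the Columbia ecotype, and the WS plants may differ from it.
APRR9 (chr2:19232357-19232606, plus strand): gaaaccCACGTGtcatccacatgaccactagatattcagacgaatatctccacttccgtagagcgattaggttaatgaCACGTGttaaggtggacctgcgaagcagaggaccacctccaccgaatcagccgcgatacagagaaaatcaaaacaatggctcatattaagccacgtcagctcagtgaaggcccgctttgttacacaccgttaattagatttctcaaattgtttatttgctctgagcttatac
ELIP1 (chr3:8085670-8085919, minus strand): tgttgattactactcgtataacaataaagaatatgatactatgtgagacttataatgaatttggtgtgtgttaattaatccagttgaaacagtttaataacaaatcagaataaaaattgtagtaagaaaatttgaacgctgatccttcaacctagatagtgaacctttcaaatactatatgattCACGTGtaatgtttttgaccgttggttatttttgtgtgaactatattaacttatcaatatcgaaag

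The photosynthesis and light protection group, in which the carbonic anhydrase gene BCA3 was placed, had 4 of 7 members called higher. The members called lower were ELIP1 and ELIP2. BCA3 (AT1G23730, chr1:8395466-8398387, plus strand), a beta carbonic anhydrase, which interconverts CO2 and bicarbonate, was at 0.27, 1.44 and 1.36 FPKM on the ground and 4.52, 10.3 and 10.9 FPKM in flight. All spaceflight plates were above all ground control plates, and the change of 2.22 ± 0.39 (adjusted p = 0.00614) was the highest among genes whose groups did not overlap. BCA3 overlaps AT1G23740 on the opposite strand. LHCB2.2 (AT2G05070), a light-harvesting protein of photosystem II, was at 17.5, 12.9 and 11.7 FPKM on the ground and 33.1, 50.5 and 18.5 FPKM in flight, a change of 1.13 ± 0.37 (adjusted p = 0.0224). LHCB1.2 (AT1G29910), of the same antenna, was at 76.9, 76.1 and 69.4 FPKM on the ground and 158, 235 and 97.7 FPKM in flight, a change of 1.04 ± 0.33 (adjusted p = 0.0201), and it has near-identical copies among which reads could have been split. PSAD2 (AT1G03130), a subunit of photosystem I, and LHCB4.2 (AT3G08940), a minor antenna protein, had changes of 1.05 ± 0.31 (adjusted p = 0.0161) and 0.97 ± 0.31 (adjusted p = 0.0212, not called). In these 4 genes plate 2 was the highest of the spaceflight roots and plate 3 the lowest, with plate 3 of LHCB2.2 at 18.5 FPKM against 17.5 FPKM in ground control plate 1. Without spaceflight plate 2, 3 of the 7 genes were called.

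LHCB1.2, LHCB2.2, LHCB4.2 and PSAD2 belong to a wider set of genes with far more FPKM in leaves. Of the 42 genes with a higher mean in spaceflight roots, 23 had at least 10 times the FPKM in leaves (mean of 6 libraries) that they had in roots, and of the 23 lower genes none did. At the other end, with leaf FPKM at 0.1 times the root FPKM or less, stood 6 higher and 10 lower genes. The authors' expression filter counted leaf and root libraries together, so a gene faint in roots could pass it through its leaf libraries. In ground control roots, 10 genes of the root table had a mean under 1 FPKM, and all of them but CPuORF21 are among the 23. How far this filter shaped the share of genes with more FPKM in leaves was not tested. Of the 23 leaf-preferring genes, 6 were called and 1 of these without spaceflight plate 2. For 20 of the 23, plate 2 held the highest of the 6 root values. Of the other 19 higher genes, 12 were called, 8 of them also without spaceflight plate 2, and 11 were highest in that plate.

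The gain of the 23 genes in spaceflight roots was small beside their leaf level. It came to 0.352% to 7.91% of the mean spaceflight leaf FPKM of the same gene, with a median of 2.45%, and it was 1.01% for LHCB4.2, 1.13% for LHCB1.2, 1.14% for PSAD2 and 1.55% for LHCB2.2. Of a list of 34 leaf and photosynthesis markers, 5 are in the deposited tables. Among these, LHCB1.2, LHCB2.2, LHCB4.2 and PSAD2 are the 4 in the root table. Those 4 were chosen for their change in these roots, so the sum is not a separate measure of leaf tissue. The summed level of the 5 was 116 to 124 FPKM in ground control roots and 246, 387 and 167 FPKM in spaceflight roots of plates 1, 2 and 3. In leaves it was 7148 to 19577 FPKM. The fifth marker, GLK1, a transcription factor of chloroplast development, did not follow the others in roots. It was at 0.94, 1.19 and 1 FPKM in ground control roots and 0.73, 0.51 and 0.56 FPKM in spaceflight roots. GLK1 was lower in spaceflight leaves too, at 47.1, 44.7 and 43.2 FPKM against 123, 104 and 135 FPKM in ground control leaves. BGLU21, the only one of 24 root markers in the tables, was at 968, 832 and 762 FPKM on the ground and 535, 521 and 751 FPKM in flight. The part of leaf or green tissue in the higher values of these genes was not tested.

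**Figure D4:**
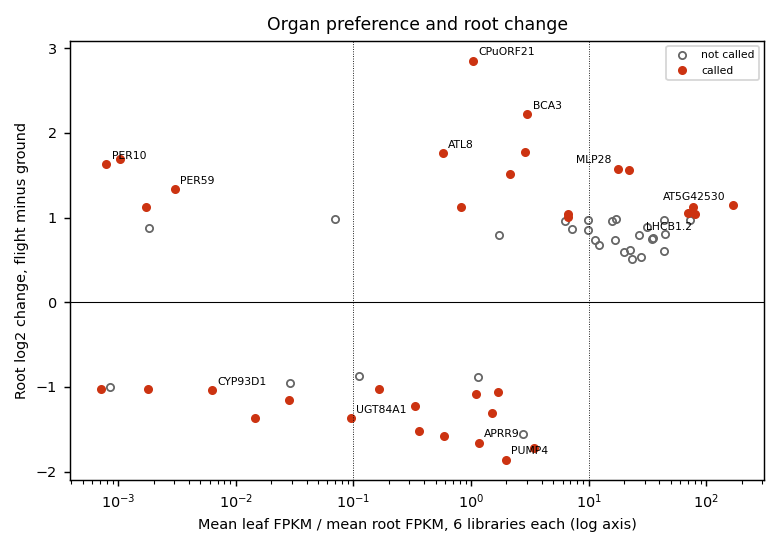
Root log2 change (spaceflight minus ground control) against the ratio of mean leaf to mean root FPKM on a log axis, with called genes filled and 10-fold preference for either organ at the dotted lines. To the right of the upper dotted line lie 23 genes, all with a higher mean in spaceflight roots, and the 2 genes at 0 in every leaf library cannot be drawn.

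Among the other transcription factors, 2 of 4 were called higher and 1 lower. ERF107 (AT5G61590, chr5:24764256-24765511, minus strand), an ethylene response factor, was at 17.1, 11.3 and 12.5 FPKM on the ground and 30.8, 62.9 and 33.5 FPKM in flight, a change of 1.52 ± 0.33 (adjusted p = 0.00739). RAP2-3 (AT3G16770), of the ethylene response factors that are stable when oxygen is low, was at 55.7, 60.2 and 73.8 FPKM on the ground and 144, 163 and 87.4 FPKM in flight, a change of 1.01 ± 0.30 (adjusted p = 0.0161). Its spaceflight plate 3 was the nearest to the ground control plates, and its change lay just past 2-fold. AGL24 (AT4G24540), a MADS-box factor of flowering, was at 1.51, 1.89 and 1.9 FPKM on the ground and 2.86, 5.73 and 2.69 FPKM in flight and was not called (0.73 ± 0.29). DREB2A (AT5G05410), a factor of the drought and heat response, was called lower and is given in the next paragraph. Without ground control plate 2, and likewise without spaceflight plate 2, 1 of the 4 was called.

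A set of 6 lower genes was high in ground control plate 2, at least 1.5 times either of the other ground control roots, and all 6 were also highest in that plate's leaf library. PUMP4 (AT4G24570), a dicarboxylate carrier of the inner mitochondrial membrane, was at 48.1, 181 and 20.4 FPKM on the ground and 20.7, 18.5 and 8.44 FPKM in flight. The groups overlapped, since ground control plate 3 was below spaceflight plate 1, and the change of -1.86 ± 0.70 was called with an adjusted p of 0.0345. AT4G27657, which is uncharacterised, was at 23.4, 64.04 and 9.69 FPKM on the ground and 11.04, 9.38 and 2.8 FPKM in flight, a change of -1.72 ± 0.67 (adjusted p = 0.0366). PCFS5 (AT5G43620), related to a factor of mRNA 3′ end cleavage, was at 9.38, 28.1 and 5.12 FPKM on the ground and 3.3, 5.74 and 1.38 FPKM in flight, a change of -1.58 ± 0.58 (adjusted p = 0.0324). These groups overlapped as well. DREB2A was at 15.6, 26.6 and 11.9 FPKM on the ground and 10.2, 5.95 and 5.01 FPKM in flight, a change of -1.22 ± 0.36 (adjusted p = 0.0161), with no overlap. AT4G29780 (annotated as a nuclease) and AT1G50750 (a mobile domain protein) had changes of -1.56 ± 0.72 and -0.89 ± 0.42 and were not called.

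The size of these changes depended on that plate. Without ground control plate 2 the change was -1.03 for PUMP4 (adjusted p = 0.0556), -1.05 for AT4G27657 (adjusted p = 0.072), -0.96 for PCFS5 (adjusted p = 0.0643) and -0.92 for DREB2A (adjusted p = 0.0428), and none of the 4 was called. The number of lower calls in the whole table was then 11. In leaves, PUMP4 was at 66.7, 244 and 45.6 FPKM on the ground and 90.7, 61.04 and 78.5 FPKM in flight, so that ground control plate 2 alone lay above all spaceflight plates. The values of this plate were left in, and no source used here gives a difference in its handling.

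**Figure D5:**
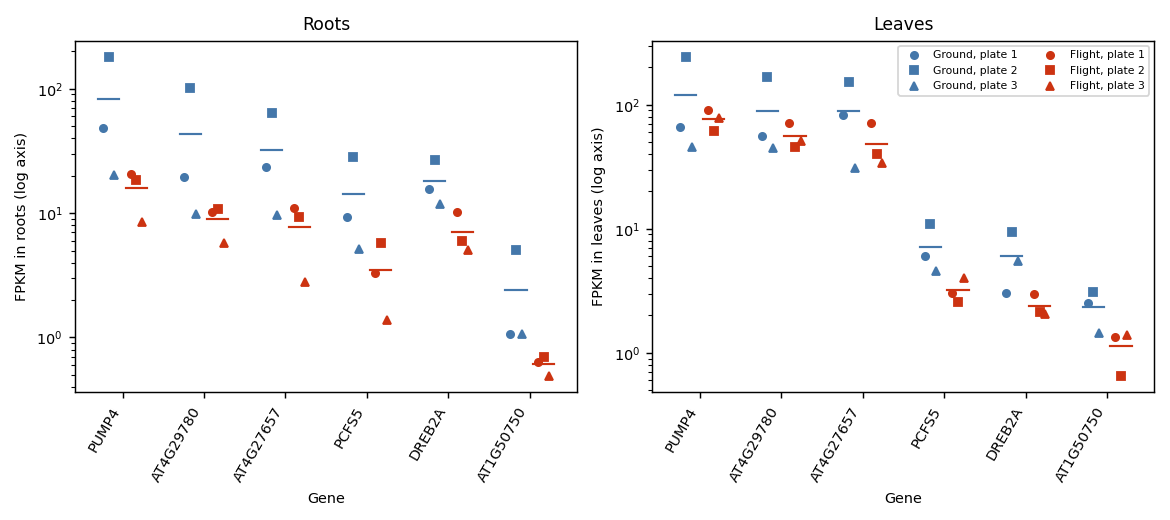
FPKM on log axes in roots (left) and leaves (right) of 6 genes that were high in ground control plate 2, with ground control in blue, spaceflight in red, plates 1 to 3 as circles, squares and triangles, and the group mean as a bar. The blue square is the highest point for every gene in both organs.

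The rapid stress response element CGCGTT, known from genes that answer within minutes to wounding, cold and other stress, was searched on both strands of the same windows. It was found before 4 of 62 genes of the root table (6.45%) and before 2.59% of 27443 protein-coding genes. Of the 4, PUMP4, AT4G27657 and PCFS5 are among the genes high in ground control plate 2, and LHCB4.2 is not. The 3 windows are shown, 5′ to 3′ along the gene, with the element in capitals, which reads AACGCG where it lies on the other strand. It lay 133 bases before the start of PUMP4, 75 before that of AT4G27657 and 46 before that of PCFS5. A match of letters is a description of the reference and not a measured site. The motifs AAAATATCT, ACCGAC, GAANNTTC (N is any base), TTGACC and TATCCA were searched in the same windows as well. In that order they were found before 3.23%, 4.84%, 9.68%, 11.3% and 21.0% of the 62 genes. Before the 27443 protein-coding genes the shares were 2.36%, 4.70%, 9.55%, 12.2% and 13.6%. No difference in share was tested for any motif.
PUMP4 (chr4:12686209-12686458, plus strand): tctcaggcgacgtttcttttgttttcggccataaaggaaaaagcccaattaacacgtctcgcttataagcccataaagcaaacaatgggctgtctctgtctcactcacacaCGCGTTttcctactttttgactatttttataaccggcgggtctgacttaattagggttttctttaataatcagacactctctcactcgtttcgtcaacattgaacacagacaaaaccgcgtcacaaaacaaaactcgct
AT4G27657 (chr4:13812739-13812988, plus strand): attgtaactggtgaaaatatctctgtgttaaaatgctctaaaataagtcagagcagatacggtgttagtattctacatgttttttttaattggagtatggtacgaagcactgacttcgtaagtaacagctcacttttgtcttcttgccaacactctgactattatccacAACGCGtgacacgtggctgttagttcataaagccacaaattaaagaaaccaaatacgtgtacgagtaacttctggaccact
PCFS5 (chr5:17522236-17522485, plus strand): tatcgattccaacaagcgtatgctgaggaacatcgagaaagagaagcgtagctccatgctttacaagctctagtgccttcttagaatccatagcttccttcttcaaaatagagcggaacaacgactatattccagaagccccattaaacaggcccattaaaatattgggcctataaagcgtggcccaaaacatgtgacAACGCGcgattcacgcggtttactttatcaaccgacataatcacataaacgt

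The other genes of carbon metabolism and transport were higher but not called. ICL (AT3G21720), isocitrate lyase of the glyoxylate cycle, by which plants use carbon from stored fat, was at 3.16, 5.11 and 4.17 FPKM on the ground and 6.48, 10.6 and 8.4 FPKM in flight, a change of 0.88 ± 0.27 (adjusted p = 0.0188). NPF5.7 (AT3G53960), of the nitrate and peptide transporter family, was at 1.77, 3.29 and 1.84 FPKM on the ground and 3.54, 6.95 and 3.85 FPKM in flight, a change of 0.79 ± 0.31. F24J8.4 (AT1G21400), a subunit of an enzyme that breaks down branched-chain amino acids, was at 0.3, 0.53 and 0.46 FPKM on the ground and 1.17, 1.81 and 0.96 FPKM in flight, a change of 0.68 ± 0.24. In all 3 genes every spaceflight plate was above every ground control plate. Of the 4 genes with PUMP4, none was called without spaceflight plate 2 or without plate 3, and 2 were without plate 1. In the signalling group, PCFS5 was the only call among 3 genes, and it was lost without ground control plate 2 or without any spaceflight plate. AT5G02760, a protein phosphatase 2C, was at 0.74, 0.72 and 0.63 FPKM on the ground and 1.67, 1.53 and 2.88 FPKM in flight (0.81 ± 0.25), and the hydrolase gene AT5G22460 was at 0.45, 0.29 and 0.56 FPKM on the ground and 1.26, 1.44 and 0.91 FPKM in flight (0.62 ± 0.23). These levels are near or under 1 FPKM on the ground, where the added 1 holds the change down.

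Of the 10 genes without a characterised role, 2 were called higher and 2 lower. CPuORF21 (AT5G09672), a conserved peptide upstream open reading frame, was listed at 0.05 FPKM in all ground control roots and spaceflight plate 1 and at 27.4 and 13.6 FPKM in spaceflight plates 2 and 3. Its change of 2.85 ± 1.02 (adjusted p = 0.03) thus rested on 2 libraries. In leaves it was at 0.05 FPKM in 4 libraries and at 15.9 and 26.9 FPKM in ground control plates 2 and 3, and it is the only gene of the root table that TAIR10.1 does not list. AT5G42530 was at 7.86, 11.1 and 11.8 FPKM on the ground and 21.6, 31.8 and 18.8 FPKM in flight, a change of 1.14 ± 0.29 (adjusted p = 0.0107), and its level in leaves was 168 times that in roots. AT3G51238, a long noncoding RNA antisense to AT3G51240, the flavanone 3-hydroxylase gene of flavonoid synthesis, was at 7.88, 7.56 and 7.63 FPKM on the ground and 2.92, 3.13 and 3.81 FPKM in flight. The change was -1.02 ± 0.22 (adjusted p = 0.00739) with tight ground control values, and reads of the antisense partner cannot be told apart while the strand of the counting is not settled. The other members were AT1G72645 (0.98 ± 0.29), AT1G78460 (0.96 ± 0.28), AT5G54585 (0.87 ± 0.30), AT2G42975 (0.86 ± 0.26) and UP6 (0.79 ± 0.31), all with higher means, and short of 2-fold with 1 added to their low FPKM. The number of calls among the 10 was 1 without spaceflight plate 2 and 7 without ground control plate 3 or without spaceflight plate 3.

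The same 65 genes were then followed in the leaves of the same plates. The root comparison that chose the table did not use these libraries, but the authors' expression filter counted them. There 12 were called (18.5%), 7 higher (10.8%) and 5 lower (7.69%), and 20 passed an unadjusted p of 0.05. All 12 are also in the leaf table, so they too had been chosen for a change in these leaf libraries. None of the 48 genes listed for root alone was called in leaves. Their absence from the leaf table largely fixed that outcome, since it lists genes that passed the authors' test in these same leaves. The median size of the leaf change was 0.33, against 1.04 in roots. The number of leaf calls was 7 without ground control plate 3, 6 without spaceflight plate 2 and 4 without spaceflight plate 3.

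Of the 17 genes listed for both organs, 13 were called in roots. ATL75 was at 15.4, 11.1 and 8.95 FPKM in ground control leaves and 41.2, 41.2 and 41.2 FPKM in spaceflight leaves, a leaf change of 1.75 ± 0.19 (adjusted p = 0.00878) beside 1.78 in roots. ERF107 was at 22.1, 35.4 and 39.3 FPKM and 76.3, 94.1 and 94.3 FPKM, a leaf change of 1.46 ± 0.25 (adjusted p = 0.0166) beside 1.52 in roots. ATL8 and AT5G42530 were also called higher in both organs, with leaf changes of 1.11 and 1.09. SKIP20 and AT1G78460 were called higher in leaves, at 1.48 and 1.23, but not in roots. APRR9, BBX29 and MSRB6 were called lower in both organs, with leaf changes of -2.41, -2.40 and -1.02. ELIP1, ELIP2 and DREB2A had leaf changes of -1.44, -1.08 and -0.95 and RAP2-3 one of 1.40, none of them called (adjusted p from 0.0657 to 0.187). ELIP1 was at 57.9, 23.9 and 21.3 FPKM in ground control leaves and 21.6, 6.72 and 8.28 FPKM in spaceflight leaves, with a spread within the groups that left them overlapping.

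OXS3, UP6 and AT5G54585 differed between the organs. OXS3 was at 9.01, 15.1 and 9.48 FPKM in ground control leaves and 92.6, 144 and 144 FPKM in spaceflight leaves, a leaf change of 3.39 ± 0.28 (adjusted p = 0.0051) against 1.05 in roots. UP6 was at 63.5, 38.7 and 40.2 FPKM and 18.1, 17.6 and 22.3 FPKM in leaves and at 0.7, 0.63 and 0.45 FPKM and 2.27, 2.63 and 0.76 FPKM in roots, with lower values in spaceflight leaves and higher values in spaceflight roots, where plate 3 was close to ground control. AT5G54585 was at 21.3, 17.8 and 18.4 FPKM and 8.59, 8.02 and 5.32 FPKM in leaves and at 1.59, 1.03 and 0.43 FPKM and 3.06, 3.04 and 1.8 FPKM in roots, with the same opposed directions. The leaf changes of UP6 and AT5G54585, -1.22 and -1.30, were called, and their root changes, 0.79 and 0.87, were not.

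The difference between the root and the leaf effect was tested with limma on the root minus leaf difference of each plate. It was called for 30 of the 65 genes (46.2%), with 16 on the higher side (24.6%) and 14 on the lower (21.5%), and 25 of the 30 are listed for root alone. Since the genes were chosen for their change in roots, the test does not treat the organs alike. AT4G33720 differed by 1.68 (adjusted p = 0.00319), PER10 by 1.61 (adjusted p = 0.00479) and LAS1 by -1.34 (adjusted p = 0.00819), and these genes were at 0.42 FPKM or less in all leaves, where a change can hardly be seen. LHCB2.2 differed by 2.16 (adjusted p = 0.00319) and LHCB1.2 by 1.63 (adjusted p = 0.00819), with leaf changes of -1.04 and -0.59 that were not called. BCA3 differed by 1.95 (adjusted p = 0.00333) and MLP28 by 1.48 (adjusted p = 0.00479), both present in leaves with no called change there. The difference was 0.03 for ATL75, 0.06 for ERF107 and -0.04 for MSRB6, and none of these passed the test. The number of genes called was 12 without ground control plate 1 or 2 and 13 without ground control plate 3.

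The root libraries also give values for the 608 genes of the leaf table, which were chosen on leaves. In roots, limma called 1 of them (0.164%), ATL8, which the root table lists as well. An unadjusted p under 0.05 was reached by 166, of which 105 were higher and 61 lower. For 185 genes (30.4%) the 3 spaceflight roots did not overlap with the 3 ground control roots, and 13 changed by at least 2-fold. The median size of the change was 0.21, beside 1.04 for the root table in the same libraries. The number of calls was 0 without ground control plate 1 or 3, 2 without ground control plate 2, 6 without spaceflight plate 1 and 21 without spaceflight plate 3. With genes under a mean of 1 FPKM left out there were 12.

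Pathway lists showed how far responses of the leaf table were also seen in roots. The counts of unadjusted p under 0.05 below stand beside 166 of the 608 genes of the leaf table, 105 higher and 61 lower. Of 40 heat shock and chaperone genes, 17 are listed, and 14 had a lower mean in spaceflight roots, with a median change of -0.33. In the fit of the leaf table none of the 17 was called (smallest adjusted p = 0.062), 9 had an unadjusted p under 0.05, all lower, and for 12 every spaceflight root was below every ground control root, as it was for 11.3% of the 608 genes of the leaf table. HSFA2, a heat shock transcription factor, was at 2.27, 2.6 and 3.62 FPKM in ground control and 1.61, 1.35 and 1.36 FPKM in spaceflight roots, a change of -0.64 ± 0.15 (adjusted p = 0.062). MED37C, an HSP70-type chaperone, was at 100.4, 91.9 and 119 FPKM and 73.6, 72.8 and 58.8 FPKM, a change of -0.59 ± 0.14. CLPB1 (also called HSP101) and MBF1C, a heat response coactivator, had changes of -0.58 ± 0.13 and -0.68 ± 0.20, with spaceflight roots of MBF1C at 60.3, 45.5 and 34.4 FPKM and ground control roots at 74.6, 68.3 and 78.3 FPKM. These groups did not overlap, and no change reached 2-fold. The member called in the fit of the root table was DREB2A, and it was not called without ground control plate 2 or without spaceflight plate 2. The list does not hold every heat shock gene of the leaf table. Outside it, HSP17.4B (-0.84), HSP17.6A (-0.32), HSP90-2 (-0.31) and HSP90-3 (-0.33) had lower means in spaceflight roots and HSP18.5 (0.12) a higher mean, none of them called.

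Of 26 genes that rise in darkness or sugar starvation, 20 are listed, and 16 had a higher mean in spaceflight roots. Of the 19 in the leaf table, its fit called 1, ATL8, and 10 had an unadjusted p under 0.05, 8 of them higher. BZIP1, a transcription factor of low energy signalling, was at 4.64, 5.14 and 2.73 FPKM on the ground and 9.68, 10.8 and 6.51 FPKM in flight, a change of 0.96 ± 0.25 (adjusted p = 0.0768). The upstream open reading frame entry CPuORF4 (AT5G49448) has the same values in every library, so they cannot be credited to BZIP1 alone. STR15, the senescence gene also known as DIN1, was at 1.07, 1.18 and 0.64 FPKM and 3.5, 3.32 and 1.69 FPKM, a change of 0.94 ± 0.23 (adjusted p = 0.0666). The kelch repeat gene AT1G80440 was at 6.02, 7.55 and 5.69 FPKM and 15.4, 17 and 7.58 FPKM, a change of 0.88 ± 0.29, and BT2, a BTB protein of nitrogen and sugar responses, at 25.2, 27.4 and 18.9 FPKM and 31.99, 60.8 and 32.3 FPKM, a change of 0.73 ± 0.28. BZIP1, STR15, AT1G80440 and BT2 were higher in every spaceflight plate than in any ground control plate, as were 19.1% of the 608 genes. None of them was called in this fit. Without spaceflight plate 3, 5 genes of the list were called, and without ground control plate 2 there were 2.

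Of 30 clock genes, 9 are listed, with 3 higher and 6 lower means and a median of -0.33. APRR9 was the call, in the fit of the root table. In the fit of the leaf table the smallest adjusted p was 0.0534 and 4 of 9 had an unadjusted p under 0.05. GI (GIGANTEA), an evening component, was at 29.9, 26.6 and 28.6 FPKM on the ground and 19.6, 18.96 and 15.2 FPKM in flight, a change of -0.64 ± 0.12 (adjusted p = 0.0534). AT5G64170 was at 19.95, 18.8 and 18.6 FPKM and 13.8, 13.4 and 10.9 FPKM, a change of -0.56 ± 0.11. For both genes every spaceflight root was below every ground control root, as it was for 11.3% of the 608 genes of the leaf table. RVE2, a MYB factor of the morning, was at 63.7, 62.8 and 66.9 FPKM and 120.4, 96.3 and 69.5 FPKM, a change of 0.52 ± 0.20. RVE1 changed by 0.42 ± 0.21 with overlapping groups.

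Of 29 low-oxygen genes, 13 are listed, 9 with a higher and 4 with a lower mean in spaceflight roots and a median change of 0.13. RAP2-3 was called in the fit of the root table, and this call was lost without ground control plate 1 or 2 or without spaceflight plate 1 or 2. In the fit of the leaf table none of the 13 was called (smallest adjusted p = 0.0676), and 2 had an unadjusted p under 0.05. ADH1, the alcohol dehydrogenase of fermentation, was at 15.2, 21.2 and 21.2 FPKM on the ground and 23.4, 31.95 and 17.2 FPKM in flight, a change of 0.29 ± 0.24 (adjusted p = 0.514), and S-ACP-DES6, a fatty acid desaturase, at 22.01, 33.04 and 40.9 FPKM and 24.8, 37.1 and 16.6 FPKM, a change of -0.31 ± 0.33 (adjusted p = 0.622). Both groups overlapped. AT4G10265, of the wound-responsive family, changed by 0.27 ± 0.29 and AT4G27450, of the aluminum-induced family, by 0.61 ± 0.19, with 38.7, 40.5 and 30.2 FPKM in flight against 18.4, 27.5 and 25.2 FPKM on the ground. Left without ground control plate 1, AT4G10265 stood at -0.03.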

How the data were processed

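RNA was sequenced from roots and leaves of the same seedlings of 3 spaceflight and 3 ground control plates, 12 libraries in all. Per the study's methods and the labels' processing notes, the authors used FastQC for read quality, Trimmomatic for trimming, STAR for mapping to TAIR10 and RSEM for estimated counts and FPKM. No source used here names their versions. The labels and the methods name different library kits, so the strand of the counting is not settled. Reads of WS plants were mapped to the Columbia reference.

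The deposited tables give FPKM for all 12 libraries. The authors' columns do not name this unit, which was taken from the methods and from the dependence of the values on gene length. The authors also deposited mean CPM, their log2 fold change, p-value and q-value from edgeR, which were not used. Genes were kept when 3 or more libraries exceeded 5 CPM, the FDR was under 0.05 and the fold change was over 2.

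Here log2(FPKM + 1) was compared with limma 3.58.1 in R 4.3.3, with no filter and no block, over the 65 genes of the root table in roots and in leaves, over the 608 genes of the leaf table in roots, and on the root minus leaf difference within each plate. p-values were adjusted by Benjamini-Hochberg over the table. The steps were tested on simulated data. The deposited FPKM give no counts, so depth, and the precision it would give, are unknown. The alternatives were a pseudocount of 0.1, a filter at a mean of 1 FPKM, a replicate block, centring on genes of the leaf table, both tables together, other thresholds and each library left out. Every gene of the root table may be named. Values of each library are given for the 10 highest and 10 lowest calls without overlap, genes listed for both organs and up to 4 genes of each function group or pathway list, called genes first and then by size of change. Values given beyond this rule, such as those of LHCB1.2, were chosen after they were seen. The members, function groups and lists were chosen with earlier results of these data known. Of the 65 identifiers, 64 are in the TAIR10.1 annotation. Windows of 250 bases before the gene start were taken for protein-coding genes only, which left 62. Tables and plots were made in Python 3.11.15 (numpy 2.4.6, pandas 2.3.3, matplotlib 3.10.9).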

Additional observations from a re-analysis of the deposited data

Results flagged for a closer look

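The spaceflight effect differed between root and leaf for 30 genes of the root table (limma on the root minus leaf difference of each plate, adjusted p under 0.05 and a difference of at least 2-fold). The differences below are of log2(FPKM + 1), root effect minus leaf effect. The genes were chosen for their change in roots. Where a gene has almost no leaf expression, a leaf change can hardly be seen, and the difference largely restates the root change. For CYP716A2, at 0 FPKM in every leaf library, both were -1.08.

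OXS3 (-2.35) rose in both organs and far more in leaves, and BBX29 (1.09) fell in both and more in leaves. UP6 (2.02), AT5G54585 (2.17) and CPuORF21 (5.77) had higher values in spaceflight roots and lower values in spaceflight leaves. The root changes of UP6 (0.79) and AT5G54585 (0.87) and the leaf change of CPuORF21 were not called, and the root change of CPuORF21 rested on 2 libraries.

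Genes lower in spaceflight roots with little or no expression in leaves were LAS1 (-1.34), UGT91A1 (-1.25), CYP93D1 (-1.15), UGT84A1 (-1.13), AT1G80320 (-1.11), CYP716A2 (-1.08), UGT83A1 (-1.06), CYP76G1 (-1.04), AT1G15540 (-1.02) and CYP712A2 (-1.01). PUMP4 (-1.6), AT4G29780 (-1.11) and AT4G27657 (-1.06) were expressed in both organs and were highest in ground control plate 2 in both.

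Genes higher in spaceflight roots with almost no leaf expression were AT4G33720 (1.68), PER10 (1.61), AT2G05510 (1.26) and PER59 (1.23). Genes higher in spaceflight roots with far more FPKM in leaves and no called leaf change were LHCB2.2 (2.16), LHCB1.2 (1.63), MLP28 (1.48), PSAD2 (1.21), LHCB4.2 (1.12) and COL16 (1.01). BCA3 (1.95) and AT2G42975 (1.1), also expressed more in leaves, had no called leaf change.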

How the results depend on the processing

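Of the 36 genes called in roots all kept their direction in every setting run. The count was 57 (37 higher) with 0.1 added, 23 (10 higher) with both tables adjusted together, 59 without the 2-fold threshold and 16 at an adjusted p under 0.01. With single libraries left out it ran from 18 to 41, with 9 to 28 higher and 9 to 21 lower. Leaf calls of the root table ran from 4 to 10 (12 with all libraries), root calls of the leaf table from 0 to 21 (1 with all) and genes differing between organs from 12 to 27 (30 with all). With genes under a mean of 1 FPKM left out, 12 genes of the leaf table were called in roots, and with 0.1 added 17 genes differed between organs. With 0.1 added, calls were 4 in carbon metabolism and transport, 7 in cell wall, 10 in uncharacterised genes, 3 in signalling and 3 in the sugar starvation list. Left-out libraries gave 1 to 6 calls among oxygenases, 0 to 2 in carbon metabolism and transport, 1 to 4 in light and clock factors, 1 to 7 in uncharacterised genes, 1 to 3 in other transcription factors, 3 to 7 in photosynthesis and 0 to 1 in signalling. In the lists they gave 0 to 1 for low oxygen, 0 to 1 for heat shock and 1 to 5 for sugar starvation. The root change of AT4G10265 (0.27) ran from -0.0292 without ground control replicate 1 to 0.555 without ground control replicate 2. Beyond the fewer samples or genes that a setting leaves, the cause was not tested.

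The plates of the groups share only a number. The deviations of same-numbered root plates from their group means correlated at 0.04, 0.08 and 0.13 over 656 genes. With the replicate block, 37 genes were called in roots, 11 in leaves, 4 of the leaf table in roots and 30 between organs. Depth is unknown, so low FPKM carry an error that these files do not give.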
